A study of Homo sapiens with 10 samples.

Results

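To examine how active chromatin at chemokine genes differs with TWEAK and between HER2 breast cancer lines, H3K27ac peaks were collected around 10 chemokine genes: CCL2, CCL5, CCL20, CXCL1, CXCL2, CXCL3, CXCL5, CXCL8, CXCL10 and CX3CL1. The members were given as a list of genes, and each had a window of its GENCODE gene body plus 50 kb on each side (GENCODE release 44, hg38). Overlapping windows were joined, so CXCL5, CXCL3 and CXCL2 share one window and the 10 genes make 8 loci, 946.7 kb in all. Peaks of the 8 lists that overlapped by at least 1 bp were merged, and 38 of the 76044 merged regions touched a chemokine window. Merged within a line, the windows held 30 of 62104 regions in SKBR3 and 24 of 42831 in MDA-MB-453.

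The genes of the CXC cluster lie together on chromosome 4: CXCL8 (ENSG00000169429.12, chr4:73740519-73743716, plus strand), CXCL1 (ENSG00000163739.5, chr4:73869393-73871308, plus strand), CXCL5 (ENSG00000163735.7, chr4:73995642-73998677, minus strand), CXCL3 (ENSG00000163734.4, chr4:74036589-74038807, minus strand) and CXCL2 (ENSG00000081041.9, chr4:74097040-74099196, minus strand). CXCL10 (ENSG00000169245.6, chr4:76021118-76023497, minus strand) lies further along the same chromosome. CCL2 (ENSG00000108691.10, chr17:34255274-34257208, plus strand) and CCL5 (ENSG00000271503.7, chr17:35871491-35880793, minus strand) are on chromosome 17, CCL20 (ENSG00000115009.13, chr2:227805739-227817564, plus strand) on chromosome 2 and CX3CL1 (ENSG00000006210.7, chr16:57372477-57385044, plus strand) on chromosome 16.

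SKBR3 and MDA-MB-453 are established HER2 breast cancer cell lines. Cells of both lines were serum starved for 8 h, and the treated cells then received TWEAK at 10 ng/ml for 48 h, with fresh TWEAK added at 24 h. The 8 peak lists are from 2 untreated and 2 TWEAK libraries of each line. The study's methods describe its cell line ChIP-seq libraries as biological replicates, and the labels do not say what a replicate number marks.

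Chemokines are small secreted proteins that draw leukocytes along a gradient by binding G protein-coupled receptors. CXC members such as CXCL1, CXCL2, CXCL3, CXCL5 and CXCL8 act mainly on neutrophils, CXCL10 on activated T cells, CCL2 on monocytes, CCL5 on T cells and monocytes, and CCL20 on cells that carry CCR6. CX3CL1 is made as a membrane-anchored protein that can be shed, and binds CX3CR1. Many of these genes are textbook targets of NF-κB and AP-1. TWEAK is a TNF family ligand whose receptor Fn14 signals to NF-κB, and H3K27 acetylation marks active promoters and enhancers.

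Each peak was ranked within its own list by the deposited score, and a percentile of 100 is the strongest peak of that list. The lists held between 36148 and 51687 peaks, fewer in each MDA-MB-453 list than in each SKBR3 list, and the second SKBR3 TWEAK list was the longest. In the first SKBR3 untreated list 39.4% of peaks had a q-value under 1e-05, against 48.3% to 52.6% in the other SKBR3 lists and 59.8% to 63.8% in MDA-MB-453. All 8 luminal and HER2 markers (ERBB2, GRB7, KRT8, KRT18, KRT19, GATA3, FOXA1 and EPCAM) had a promoter peak in all 8 lists. None of the immune cell markers PTPRC, CD3E, CD14 and LYZ had one in any list. Of the endothelial markers CDH5 had one in all 8 lists and PECAM1 in none, and of the fibroblast markers COL1A1 had one in all 8, PDGFRB in the 4 SKBR3 lists and COL3A1 in none.

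Sequences are shown for the regions that appeared with TWEAK in SKBR3 and for promoters with and without a peak, since these carry the comparisons that follow. Capitals mark matches to the NF-κB consensus GGGRNWYYCC or to the AP-1 motif TGACTCA, both searched on both strands. In the consensus, R is A or G, W is A or T, Y is C or T and N is any base. In the CCL5 window the region present with TWEAK only in SKBR3 spans 3240 bp and holds 4 NF-κB matches and 1 AP-1 match. The stretches shown are chr17:35890177-35890342 and chr17:35890546-35890635 (hg38, plus strand), and the first of these also lies inside a weak peak of 1 MDA-MB-453 TWEAK list.
CCL5 window, first stretch: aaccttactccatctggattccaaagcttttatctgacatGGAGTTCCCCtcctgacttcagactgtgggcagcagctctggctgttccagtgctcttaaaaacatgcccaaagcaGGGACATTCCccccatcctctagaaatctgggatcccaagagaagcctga
CCL5 window, second stretch: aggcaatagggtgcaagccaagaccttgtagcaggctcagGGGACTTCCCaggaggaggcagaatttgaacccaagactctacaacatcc
In the CCL20 window the gained region is 498 bp long and holds 1 NF-κB match, shown within chr2:227863115-227863204 (hg38, plus strand).
CCL20 window: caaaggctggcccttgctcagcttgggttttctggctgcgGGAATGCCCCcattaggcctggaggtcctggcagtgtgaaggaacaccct
In the CXCL1 window the gained region is 1544 bp long and holds 1 AP-1 match, shown within chr4:73917335-73917421 (hg38, plus strand).
CXCL1 window: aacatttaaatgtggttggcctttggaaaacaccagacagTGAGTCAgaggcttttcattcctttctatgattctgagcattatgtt
The gained region of the CCL2 window has neither motif. A neighbouring region of that window, which was in 1 untreated and both TWEAK lists of SKBR3, holds 4 NF-κB matches, of which 3 are in the stretch chr17:34235569-34235816 (hg38, plus strand).
CCL2 window: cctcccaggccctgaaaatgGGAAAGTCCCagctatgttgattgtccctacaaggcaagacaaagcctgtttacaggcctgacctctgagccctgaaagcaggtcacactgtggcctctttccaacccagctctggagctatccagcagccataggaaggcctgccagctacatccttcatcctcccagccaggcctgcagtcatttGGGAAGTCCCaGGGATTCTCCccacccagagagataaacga

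Promoter sequences came from RefSeq (GRCh38.p14), 250 bases before to 50 after a start site, and 7 of the 10 members matched. CCL2, CCL5 and CX3CL1 are named only. Bases are given 5′ to 3′ in the direction of the gene, and positions are negative before the RefSeq start. CXCL8 is shown because its promoter carried a peak in MDA-MB-453, at chr4:73740420-73740499 on the plus strand, and CXCL2 because 1 list had a weak peak there, at chr4:74099206-74099285 on the minus strand. CXCL1 (chr4:73869302-73869381, plus strand), CXCL5 (chr4:73998701-73998780, minus strand) and CXCL10 (chr4:76023607-76023686, minus strand) had no promoter peak in any list.
CXCL8 promoter: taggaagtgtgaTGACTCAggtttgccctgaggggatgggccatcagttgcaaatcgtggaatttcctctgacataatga
CXCL2 promoter: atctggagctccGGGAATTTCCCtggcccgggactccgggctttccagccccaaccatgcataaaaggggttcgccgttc
CXCL1 promoter: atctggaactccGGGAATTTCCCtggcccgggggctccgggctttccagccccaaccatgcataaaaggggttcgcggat
CXCL5 promoter: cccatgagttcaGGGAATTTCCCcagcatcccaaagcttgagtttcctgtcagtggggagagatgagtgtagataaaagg
CXCL10 promoter: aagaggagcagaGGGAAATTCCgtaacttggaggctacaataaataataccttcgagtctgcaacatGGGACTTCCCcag
Of the 7 promoters, 6 held an NF-κB match, against 5.91% of 34961 RefSeq promoters of the same 300 bases. The members include textbook targets of NF-κB, and CXCL1, CXCL2 and CXCL3 have similar sequences. The 6 are thus not independent, and their share is no finding about the peaks. Counted from the start, the match begins at position −79 in CXCL1, CXCL3 and CCL20, at −78 in CXCL2 and at −91 in CXCL5, and CXCL10 has 2 matches, beginning at −177 and −122. CXCL8 had no match to this consensus and was the only one of the 7 with an AP-1 match, found in 4.92% of all promoters. Its bases shown include ggaatttcct, which departs from the other-strand form of the consensus only in its last base. Sites outside the strict consensus were not counted. Over the 250 bases before the start, CXCL1 and CXCL3 were 81.4% identical, CXCL2 and CXCL3 73.3%, and CXCL1 and CXCL2 68%, over aligned columns. Whether reads from these similar sequences were split or discarded in mapping was not tested. This limits what the scarcity of peaks at these 3 genes can show. Of the 6 promoters with an NF-κB match, only that of CXCL2 had a peak, in 1 list.

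To examine which chemokine regions appeared or disappeared with TWEAK, presence was compared between the lists of a line. Gained regions were those present with TWEAK in each of the 2 libraries of a line and absent without it, and lost regions the opposite. In SKBR3, 4 of the 30 chemokine regions were gained (13.3%) and 0 were lost, against 4.61% and 1.40% of all SKBR3 regions. The 4 lay at 4 loci, those of CCL5, CXCL1, CCL20 and CCL2. Thus 4 of the 10 genes had a gained region in their window, compared with 17.1% of protein-coding genes. In MDA-MB-453, 0 of 24 regions were gained and 0 lost, against 1.33% and 1.30% of all regions of that line. Single libraries moved these counts: without the first TWEAK library 7 regions were gained in SKBR3 (17.6% of all regions) and 3 in MDA-MB-453 (4.57%), and without the second 2 were gained in MDA-MB-453 (5.26%). In each line 1 lost region appeared without the first untreated library, against 5.7% of all regions in SKBR3 and 5.51% in MDA-MB-453. MDA-MB-453 also had 1 without its second TWEAK library, against 2.79%.

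The strongest gained region lay upstream of CCL5, which encodes a chemokine for T cells and monocytes. It spanned chr17:35889447-35892686, had no annotated gene at its midpoint, and lay 8.65 kb upstream of the CCL5 start, its nearest protein-coding start. Both untreated lists had no peak there, and the TWEAK lists ranked it at percentiles 59.5 and 72.2, with deposited fold enrichments of 4.98 and 6.14. The 2 peaks differed in extent, 1.01 kb in the first TWEAK library and 3.24 kb in the second, so only 1 of them covered at least 50% of the merged region. In MDA-MB-453 the second TWEAK list held a 618 bp peak inside this region at percentile 15.6, and the other 3 lists held none. The only other region of this window, at the promoter of RDM1, was in 3 MDA-MB-453 lists (17.3 and 7.7 untreated, 18.3 in the second TWEAK list) and in no SKBR3 list.

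The gained region of the CXCL1 window, chr4:73916692-73918235, lay 47.3 kb downstream of the start of CXCL1, a neutrophil chemokine. It was ranked at 51.4 and 67.1 in the TWEAK lists, with fold enrichments of 4.09 and 5.38 and covered lengths of 0.998 and 1.54 kb. In the CCL20 window the gained region, chr2:227862865-227863362, ranked at 37.6 and 51.5, but its nearest protein-coding start was that of DAW1, 7692 bp away. CCL20 itself started 57.1 kb away. The CCL2 window gained chr17:34244814-34245527, which ended 9.75 kb upstream of the CCL2 start and ranked at 24.6 and 41.9. No MDA-MB-453 list had a peak at these 3 regions.

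Over all 2865 gained SKBR3 regions the median percentile was 22.7 in the first TWEAK list and 39.1 in the second. All 4 chemokine regions were above the median of each list, the CCL2 region by the least. When only peaks with q under 1e-05 were kept, 1 of the 4 was still gained, that of CCL5. The second TWEAK list alone held the CXCL1 and CCL20 regions at that threshold, and neither list held the CCL2 region. The TWEAK lists differed in length, and the part of that difference in the gained calls was not tested. All 4 regions were still gained when lists were cut to equal size.

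**Figure D1:**
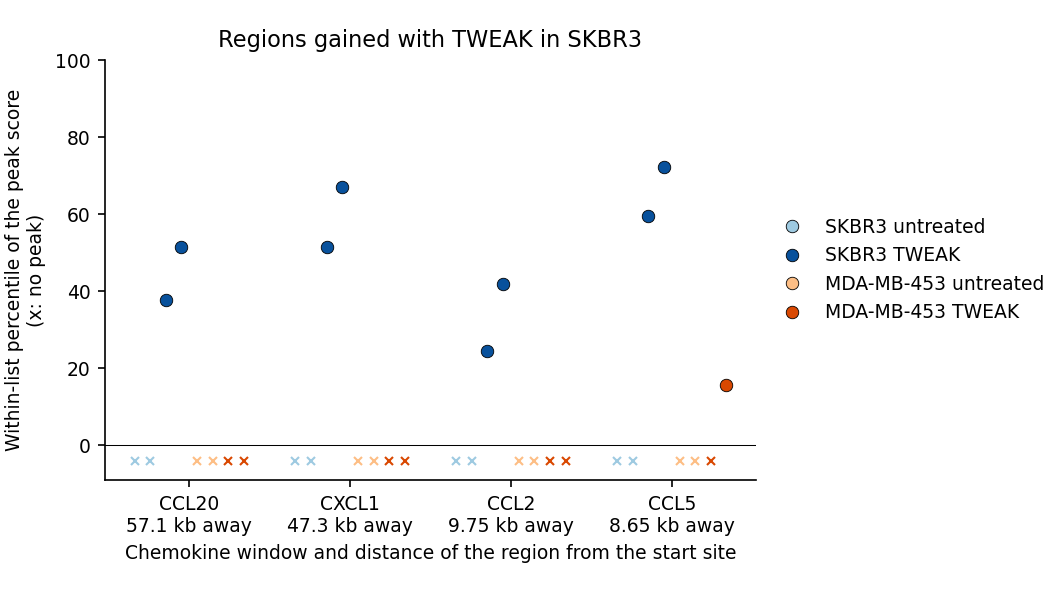
Within-list percentile of the peak score in each of the 8 lists at the 4 regions gained with TWEAK in SKBR3, with a cross where a list had no peak; the x axis gives the window and the distance in kb from the start site of its chemokine gene. Only TWEAK lists have points, from 24.6 to 72.2 in SKBR3, and 1 MDA-MB-453 TWEAK list has a point, at 15.6 in the CCL5 window.

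Promoter peaks were scarce at these genes. A promoter peak lay within 1 kb of any annotated start of the gene. In SKBR3, 2 of the 10 members had one in all 4 lists, against 56.0% of protein-coding genes, and in MDA-MB-453 also 2, against 58.3%. CCL5, CCL20, CXCL1, CXCL3, CXCL5 and CXCL10 had none in any list. CXCL2 had a single one, at percentile 8.2 in the first MDA-MB-453 TWEAK list.

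CCL2 had a promoter peak only in SKBR3 and CXCL8 only in MDA-MB-453. The CCL2 peak ranked at 65.8 and 68.2 untreated and at 66.4 and 84.9 with TWEAK, so the second TWEAK library stood above the other 3. The CXCL8 peak ranked at 46.6 and 51.7 untreated and at 39.4 and 43.0 with TWEAK, and both TWEAK lists were below both untreated lists (effect −0.20, SE 0.13, limma adjusted p = 0.734). The effect here is the difference of rank on the inverse normal scale, TWEAK minus untreated.

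CX3CL1 was the only member with a promoter peak in all 8 lists. It ranked at 98.0 and 94.9 untreated and 99.0 and 97.6 with TWEAK in SKBR3, and at 94.4, 95.6, 92.5 and 91.5 in the same order in MDA-MB-453. In MDA-MB-453 these peaks sat near an annotated alternative start inside the gene. Counting only the 5′ end of the gene, CX3CL1 had a promoter peak in 4 SKBR3 and 0 MDA-MB-453 lists, and members with one in every MDA-MB-453 list fell to 1, against 52.3% of all genes.

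**Figure D2:**
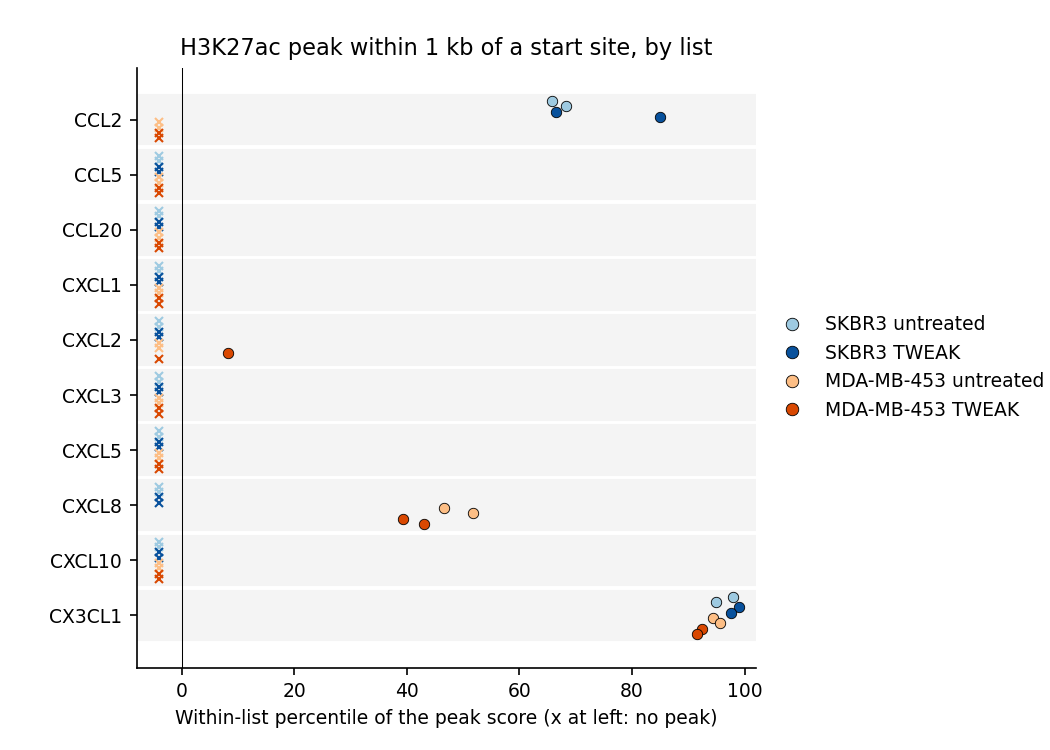
Within-list percentile (x axis) of the H3K27ac peak within 1 kb of any annotated start of each chemokine gene (y axis), 1 point per list coloured by line and treatment, with a cross at the left where a list had no peak. CX3CL1 has points in all 8 lists, from 91.5 to 99.0, CCL2 only in SKBR3, CXCL8 only in MDA-MB-453 and CXCL2 in a single list at 8.2.

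The CX3CL1 window had the greatest length under peaks of the 8 loci in every list. Peaks covered 39.4 and 36.3 kb of it in the untreated and 41.1 and 37.7 kb in the TWEAK lists of SKBR3, and between 21.8 and 24.1 kb in the MDA-MB-453 lists. At most 36.5% of the window was covered, while the next, that of CCL2, reached 9.8%. CCL22 and CCL17, which encode T cell chemokines of a shared receptor, lie in the same window, so its peaks cannot be assigned to CX3CL1 alone.

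Across the gene itself SKBR3 had a domain of peaks, merged to chr16:57365408-57389440. Its widest single peak measured 15.8 and 14.0 kb untreated and 12.6 and 10.4 kb with TWEAK, at or above the 98.3rd percentile of peak widths in each list. In total the domain covered 20.5, 17.2, 21.0 and 18.5 kb in the 4 lists. Both TWEAK libraries thus had narrower widest peaks than both untreated libraries, while the covered length overlapped. The widest peak ran to 14.2 and 13.2 kb past the gene start untreated. With TWEAK it ended at 9.66 and 9.34 kb, and further peaks began at 11.0 and 11.2 kb. The lists thus differed in where the peaks were split. The share of all regions with such an order of widths was not computed. In MDA-MB-453 the same interval held 2 separate peaks in each list, of which the wider measured between 4.70 and 5.39 kb and began 3.44 kb or more downstream of the gene start.

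Beside the domain, the region at the CCL22 promoter, chr16:57358213-57363591, ranked at 99.3, 98.8, 99.3 and 98.4 in SKBR3 and at 95.1, 96.1, 92.3 and 93.0 in MDA-MB-453. The region between CX3CL1 and CCL17, chr16:57390648-57396342, ranked between 98.0 and 99.4 in SKBR3 and between 91.1 and 95.4 in MDA-MB-453. Upstream of CCL22, chr16:57339099-57343623 had the opposite order of lines, with 90.6 to 97.9 in SKBR3 and 98.2 to 99.2 in MDA-MB-453. A weaker region within CCL17, chr16:57405795-57407211, was in all 4 SKBR3 lists and in 1 MDA-MB-453 list.

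**Figure D3:**
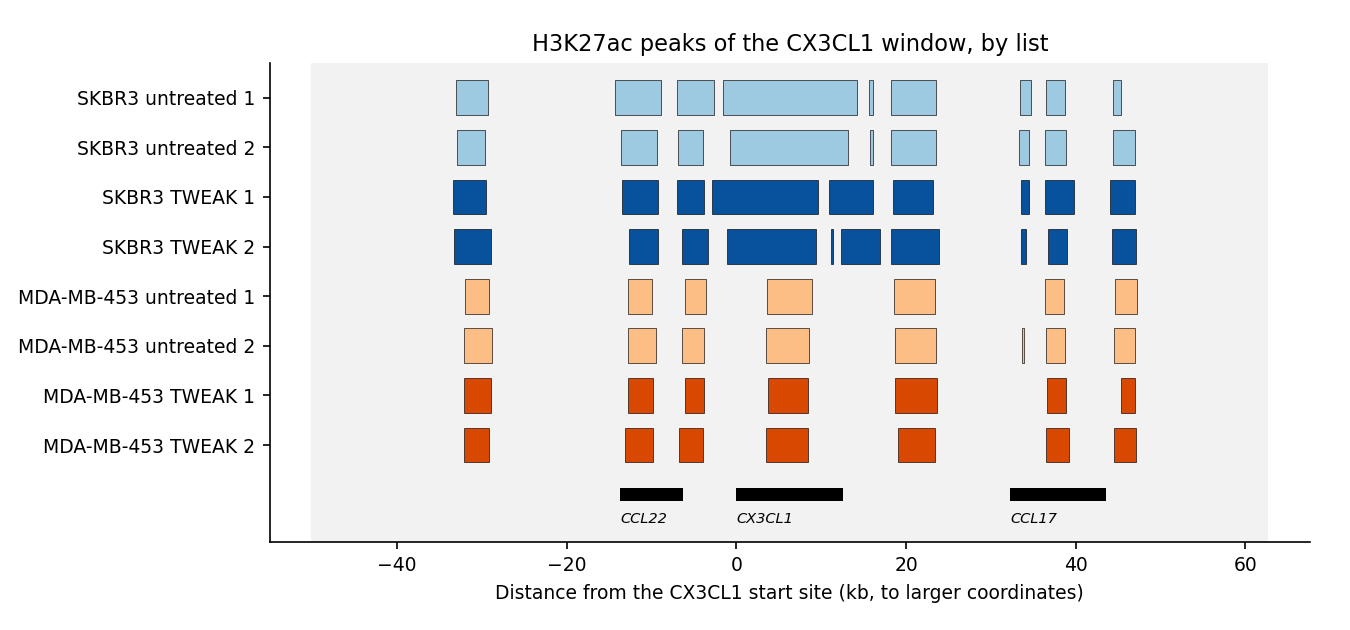
H3K27ac peaks (bars) of each of the 8 lists (rows) in the CX3CL1 window, shaded, against distance in kb from the CX3CL1 start site, with the gene bodies of CCL22, CX3CL1 and CCL17 in black. SKBR3 peaks run across the CX3CL1 start, with widest peaks of 10.4 to 15.8 kb, while the MDA-MB-453 peaks in the gene begin 3.44 kb or more downstream of it.

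In the CCL2 window SKBR3 had 6 regions and MDA-MB-453 had 3. The promoter region of SKBR3, chr17:34251984-34255698, covered 3.35, 3.43, 3.51 and 3.71 kb in the 4 lists, and was met in MDA-MB-453 only by a 236 bp peak of the second TWEAK list, 2.28 kb upstream of the start and at percentile 22.9. Another region 5.33 kb upstream, chr17:34246614-34249943, was in all 4 SKBR3 lists (58.1, 54.7, 52.0 and 65.1) and absent from MDA-MB-453. The region with the 4 NF-κB matches, 19 kb upstream, was at 26.6 in the second untreated list and at 36.4 and 39.1 with TWEAK. A region 28 kb upstream, chr17:34225477-34227248, ranked from 32.4 to 55.6 in all 4 MDA-MB-453 lists but was in only 2 SKBR3 lists, the second untreated at 44.7 and the second TWEAK at 29.3.

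The CXCL8 to CXCL2 cluster on chromosome 4 divided the lines in another way. Upstream of CXCL1, MDA-MB-453 had 4 regions in all 4 of its lists that SKBR3 lacked. These were chr4:73691554-73693450, 47.1 kb upstream of CXCL8 (73.9, 72.5, 72.5 and 72.2), chr4:73707647-73708866 in an intron of a long non-coding RNA gene (32.9, 54.2, 40.9 and 49.4), the CXCL8 promoter chr4:73739893-73741263, and chr4:73839151-73842161 in CXCL6 (61.4, 65.9, 65.4 and 60.6). CXCL6 encodes another neutrophil chemokine. In the CXCL8 window the untreated SKBR3 lists had no peak, and each TWEAK list had 1, at different places, ranked at 20.7 and 22.8.

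In the joined window of CXCL5, CXCL3 and CXCL2, the broadest region lay at MTHFD2L, a mitochondrial folate enzyme gene next to CXCL2. In SKBR3 it spanned the MTHFD2L promoter, covered 9.30, 9.15, 9.33 and 10.2 kb in the 4 lists and began 9.09 kb beyond the CXCL2 start. It holds 7 AP-1 matches and no NF-κB match. In MDA-MB-453 the peaks lay inside it, in an MTHFD2L intron 2004 bp from that gene's start and 17 kb from the CXCL2 start, and covered 1.85, 1.92, 1.53 and 1.39 kb. This narrower region holds 1 AP-1 match. A small region of MDA-MB-453 lay 50.6 kb from CXCL5, chr4:73947536-73948046, ranked at 36.9 and 41.0 untreated and 24.2 and 18.3 with TWEAK, and SKBR3 had none there. No peak touched the bodies or promoters of CXCL5 and CXCL3 in any list.

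**Figure D4:**
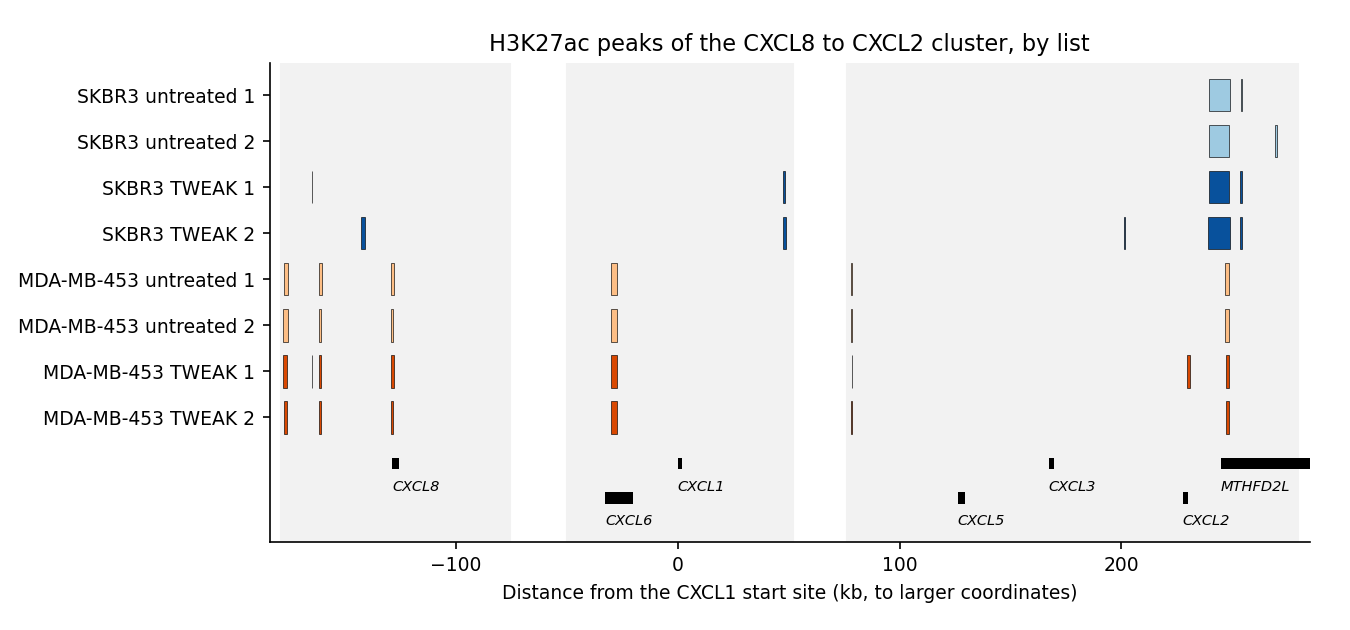
H3K27ac peaks (bars) of each of the 8 lists (rows) over the windows of CXCL8, CXCL1 and the joined window of CXCL5, CXCL3 and CXCL2, shaded, against distance in kb from the CXCL1 start site; black bars are gene bodies. MDA-MB-453 rows have peaks at CXCL8 and CXCL6 that SKBR3 rows lack, the TWEAK rows of SKBR3 share a peak 47.3 kb downstream of CXCL1, and the widest peaks, up to 10.2 kb, lie at the MTHFD2L start in SKBR3.

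The CCL20 window held 6 SKBR3 regions and 2 MDA-MB-453 regions. The region nearest the gene, chr2:227817644-227819463, was found only in SKBR3, at 82.1 and 53.1 untreated and 83.6 and 80.3 with TWEAK, and so was chr2:227852764-227854277 (65.4, 13.0, 68.1 and 64.2). In both, the second untreated library was below the other 3. Without the first untreated library these 2 regions were called higher with TWEAK (effects 0.84, SE 0.28, and 1.54, SE 0.40, limma adjusted p = 0.0902 and 0.00799), a fit that assumes the lone untreated library to vary like the TWEAK libraries. With all 4 lists and no replicate block neither was called (adjusted p = 0.717 and 0.649). With the replicate number as a block both were (limma adjusted p = 0.0894 and 0.0295), against 7.59% of all regions called higher. The labels do not say what that number marks. A region 41.5 kb from the CCL20 start, chr2:227847257-227850278, was in all 8 lists, but ranked from 66.8 to 89.6 in SKBR3 and from 3.9 to 19.1 in MDA-MB-453. The region upstream of the gene, chr2:227779890-227782360, had the reverse order, with 36.8 to 61.9 in SKBR3 and 78.4 to 82.8 in MDA-MB-453.

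In the CXCL10 window the promoter of SDAD1, a neighbouring gene, had a peak in all 8 lists, ranked from 51.3 to 72.5. A second region, chr4:76050202-76052631, lies in an intron of ART3 with CXCL11 as its nearest start, 26.7 kb from the CXCL10 start, and was found only in SKBR3. It ranked at 79.4 and 82.1 untreated and at 91.2 and 89.4 with TWEAK, with fold enrichments of 6.81, 9.64, 13.3 and 11.0. Both TWEAK lists were above both untreated lists. Without a replicate block the difference did not pass the test over all regions (effect 0.43, SE 0.16, limma adjusted p = 0.426, unadjusted p = 0.0201). With the replicate number as a block it did (limma adjusted p = 0.0239), against 7.59% of all regions called higher.

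In SKBR3, 16 of the 30 chemokine regions were in all 4 lists (53.3%, against 49.6% of all), and in MDA-MB-453 17 of 24 (70.8%, against 72.8%). Among such regions, ranks were compared with limma over all regions of that kind in the line, with an adjusted p under 0.1 as the threshold. In SKBR3, 0 of 16 chemokine regions were called higher and 0 lower with TWEAK, against 0.899% and 0.00974% of 30803 regions. At an unadjusted p under 0.05, 1 was higher, the ART3 intron region, and 0 lower, compared with 7.08% and 1.45% of all regions. Without the first untreated library 2 were called higher, both in the CCL20 window as given above, against 2.65% of all regions. With all 4 lists and the replicate number as a block 4 were called higher, against 7.59% of all regions. Both TWEAK percentiles exceeded both untreated ones at 4 of the 16 regions and were below them at 0, against 20.9% and 17.4% of all. Those 4 were the ART3 intron region, the MTHFD2L region and 2 regions of the CX3CL1 window. The median effect was 0.21 over the 16 regions and 0.01 over all regions.

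In MDA-MB-453, 0 of 17 chemokine regions were called higher and 0 lower, against 0.0449% and 0.167% of 31162 regions. At an unadjusted p under 0.05, 0 were higher and 4 lower, 3 of them in the CX3CL1 window, compared with 4.04% and 3.97% of all regions. Both TWEAK percentiles were below both untreated ones at 8 of the 17 regions and above them at 0, against 17.9% and 20.6% of all regions. The 8 were 4 regions of the CX3CL1 window, the CXCL8 promoter, the MTHFD2L region, the small region 50.6 kb from CXCL5 and the CCL20 region at 41.5 kb, so 4 of them share 1 locus. The region between CX3CL1 and CCL17 went from 94.6 and 95.4 to 91.1 and 92.0 (effect −0.27, SE 0.06, adjusted p = 0.176). The MDA-MB-453 peak inside CX3CL1 went from 94.4 and 95.6 to 92.5 and 91.5 (−0.24, SE 0.06, 0.315), and the CCL22 promoter from 95.1 and 96.1 to 92.3 and 93.0 (−0.26, SE 0.06, 0.239). The effects were larger, with larger errors, at 2 weaker regions. The region 50.6 kb from CXCL5 went from 36.9 and 41.0 to 24.2 and 18.3 (−0.52, SE 0.20, 0.553), and the CCL20 region at 41.5 kb from 16.2 and 19.1 to 6.7 and 3.9 (−0.70, SE 0.47, 0.742). Without the first TWEAK library the CX3CL1 peak was called lower (adjusted p = 0.099), against 0.744% of all regions. Without the second the region towards CCL17 was (adjusted p = 0.0946), against 0.311%. With all 4 lists and the replicate number as a block 1 was called lower, that between CX3CL1 and CCL17, against 0.401% of all regions. The median effect was −0.16 over the 17 regions and 0.01 over all.

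The difference of the TWEAK change between lines was tested over regions in all 8 lists. It passed for 0 of 10 chemokine regions, against 0.00% of 17704 regions (limma, adjusted p under 0.1). At an unadjusted p under 0.05 it was met by 4 of the 10, each with the higher TWEAK change in SKBR3, compared with 4.38% of all regions in that direction. All 4 lie in the CX3CL1 window. Their effects were 0.57 (SE 0.23), 0.54 (SE 0.22), 0.49 (SE 0.18) and 0.47 (SE 0.20), with adjusted p between 0.636 and 0.655.

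To compare the lines, presence was set side by side over the 8 lists. Of the 38 regions, 10 were in all 8 lists (26.3%), against 23.3% of all regions, and 6 were in a single list. A further 4 were found throughout the SKBR3 lists but never in MDA-MB-453 (10.5%), against 14.1% of all regions, and 5 showed the reverse (13.2%), against 10.5%. Both shares of the chemokine regions were near those of all regions. The SKBR3 ones lay near CCL20 (2), CCL2 (1) and CXCL10 (1), and the MDA-MB-453 ones were all on chromosome 4, in the windows of CXCL8 (3), CXCL1 (1) and CXCL5/CXCL3/CXCL2 (1). Ranks of regions in all 8 lists differed between lines at 8 of 10 chemokine regions, against 72.2% of all. SKBR3 was higher at 6, against 41.1% of all regions. These were the CX3CL1 domain, its 3 neighbours towards CCL22 and CCL17, the MTHFD2L region and the CCL20 region at 41.5 kb. MDA-MB-453 was higher at 2, against 31% of all, the regions upstream of CCL22 and of CCL20. The largest difference was at chr2:227847257-227850278, the CCL20 region at 41.5 kb, with SKBR3 higher (effect 2.22, SE 0.20, limma adjusted p = 1.28e-05), and that of the CX3CL1 domain was 0.47 (SE 0.11, 0.00481).

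Length covered by peaks was also compared between the lines. Over all 8 loci, peaks covered 65.3 and 63.4 kb in the untreated and 70.2 and 75.9 kb in the TWEAK lists of SKBR3. In MDA-MB-453 they covered 37.9 and 39.1 kb untreated and 37.5 and 38.6 kb with TWEAK. The SKBR3 lists averaged 68.7 ± 5.58 kb (SD, n = 4) and the MDA-MB-453 lists 38.3 ± 0.705 kb (SD, n = 4), a difference of 30.4 kb with no overlap (exact two-sided permutation test, p = 0.0286, the smallest that 70 assignments allow). Each SD spans untreated and TWEAK libraries, and the test compares libraries of these lines only. The whole lists differed in the same direction, covering 92.1 to 106 Mb in SKBR3 and 70.5 to 72.1 Mb in MDA-MB-453. Per Mb covered anywhere, 677 to 730 bp lay in chemokine windows in SKBR3 and 521 to 546 bp in MDA-MB-453, so the gap remained per covered base. By window the gap was widest at CX3CL1, with 36.3 to 41.1 kb in SKBR3 and 21.8 to 24.1 kb in MDA-MB-453. Next came CXCL5/CXCL3/CXCL2, with 9.71 to 11.5 kb and 1.77 to 3.1 kb, most of it at MTHFD2L in SKBR3. The windows of CXCL8 and CXCL1 went the other way.

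With TWEAK the covered length was 73.0 ± 4.03 kb against 64.3 ± 1.3 kb in untreated SKBR3 (SD, n = 2 each), a difference of 8.69 kb with no overlap between groups. It was 4836.5 bp with peaks of q under 1e-05 only, and 4076.5 bp with windows of 20 kb. The exact two-sided permutation test gave p = 0.333, the smallest that 6 assignments allow, so this design cannot reach 0.05. Per Mb covered the values were 724 ± 8.51 bp with TWEAK and 683 ± 8.32 bp without (SD, n = 2 each; exact permutation p = 0.333). In MDA-MB-453 the difference was −0.443 kb, with overlapping lists (exact permutation p = 0.667). By locus, both TWEAK lists of SKBR3 exceeded both untreated lists at CCL5, CXCL8, CXCL1 and CXCL5/CXCL3/CXCL2. The first 3 of these had no peak in either untreated list. At CCL5 and CXCL1 the length was that of the gained region, so it is no separate result. At CXCL8 the peaks of the TWEAK lists, of 0.226 and 1.86 kb, lay at different places. The share of all windows with such an order was not computed.

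**Figure D5:**
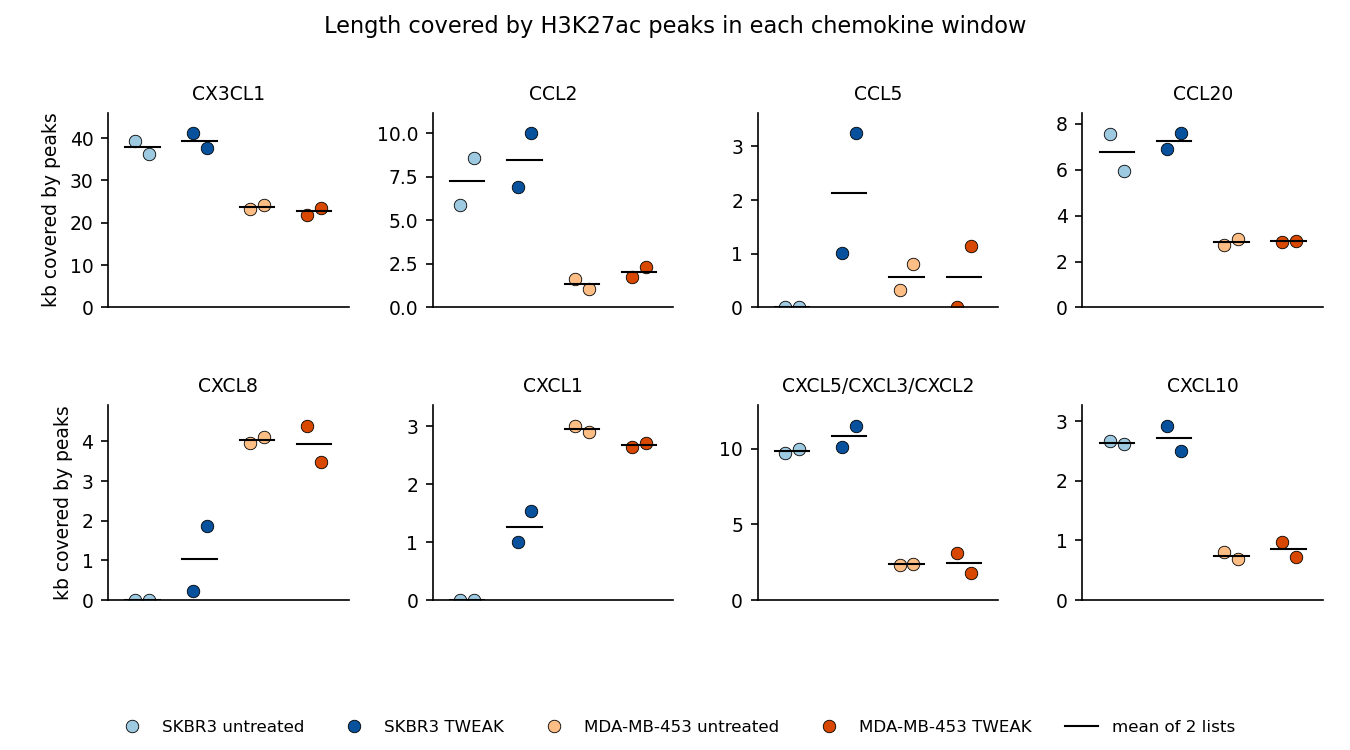
Length in kb covered by H3K27ac peaks in each of the 8 chemokine windows (1 panel per window, each with its own y axis from 0), 1 point per list and a line at the mean of the 2 lists of a group. SKBR3 lists lie above MDA-MB-453 lists at CX3CL1, CCL2, CCL20, CXCL5/CXCL3/CXCL2 and CXCL10, and below them at CXCL8 and CXCL1, where untreated SKBR3 lists are at 0.

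Motif matches were set against all regions in 1000 bp around each midpoint. In SKBR3, 7 of the 30 chemokine regions held an NF-κB match (23.3%), against 15.1% of all regions, and 8 held an AP-1 match (26.7%), against 23.9%. Among the 4 gained regions, 2 held the first and 2 the second in that interval, compared with 29.2% and 36.5% of all 2865 gained regions. The interval extends past the CCL20 and CCL2 regions, of 498 and 714 bp, and 1 of the 2 AP-1 counts came from such flanking bases. The AP-1 match of the CCL5 region lay outside the interval. In MDA-MB-453, 3 of 24 held an NF-κB match (12.7% of all regions) and 6 an AP-1 match (20.4% of all). Over its full length the SKBR3 CX3CL1 domain held 12 NF-κB and 6 AP-1 matches.

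Of 34 other chemokine genes, 2 had a promoter peak in all SKBR3 lists, CCL22 and CXCL16, and 3 in all MDA-MB-453 lists, the same 2 and CCL28. For 28 no list had one. Among protein-coding genes 56.0% had one in all SKBR3 lists and 58.3% in all MDA-MB-453 lists. The values of CXCL16 and CCL28 are given after having been seen. CXCL16 is a membrane-anchored chemokine that binds CXCR6. In SKBR3 its promoter peak ranked at 35.7 and 42.0 untreated and at 62.4 and 66.0 with TWEAK, without overlap. Such an order was met by 20.9% of SKBR3 regions in all 4 lists, and no test of CXCL16 is given. In MDA-MB-453 the peak ranked at 40.7, 32.1, 40.4 and 44.7. CCL28, a mucosal chemokine, ranked between 89.9 and 92.9 in MDA-MB-453 and had no peak in SKBR3. In SKBR3, 6 of the 34 genes had a gained region in their window, against 17.1% of protein-coding genes. These were CCL7 and CCL11 through the CCL2 region above, CCL3 and CCL4 through chr17:36131560-36134431 (33.9 and 86.6), CXCL13 (6.4 and 19) and XCL2 (22.7 and 5.4). The windows of CCL14, CCL15, CCL16, CCL18 and CCL23 shared 1 lost region (49.8 and 20.6 untreated). In MDA-MB-453, 0 of the 34 had a gained or a lost region.

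Of 22 chemokine receptor genes, 6 had a promoter peak in all lists of SKBR3 and 6 in all lists of MDA-MB-453. Among protein-coding genes the shares were 56.0% and 58.3%. For 12 receptor genes no list had one. CCR6 and CXCR3, which bind CCL20 and CXCL10, were among the genes without one. CX3CR1, the receptor of CX3CL1, had one in all 4 SKBR3 lists (40.6 to 50.9) and in the 2 TWEAK lists of MDA-MB-453 (3.6 and 22.9), where it counts as gained. In SKBR3 a gained region lay in the windows of 4 of the 22 genes, against 17.1% of protein-coding genes. These were CCR2 and CCR3, which shared 1 region, CCR8 and CXCR6. In MDA-MB-453 the windows of CCR3, CCR7, CCR8, CXCR4, CX3CR1 and XCR1 held 4 gained regions, and no gained peak ranked above 22.9. CCR3 shared 1 region with XCR1, and CCR8 shared 1 with CX3CR1. The share of all genes with a gained region is not given for MDA-MB-453, where 1.33% of all regions were gained. None of the 22 had a lost region in either line.

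By Euclidean distance between the 8 promoter percentiles, with 0 where a list had no peak, the genes most like CXCL8 were SYP (distance 2.73), SH3KBP1 (5.23) and MAGEE1 (6.47), and those most like CX3CL1 were ZNF140 (3.45), TAX1BP1 (3.58) and PDLIM5 (3.68). For CXCL2, whose pattern is 1 weak peak in 1 list, CELA2A, FAM167B and FMNL2 matched at a distance of 0.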

How the data were processed

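H3K27ac ChIP-seq was deposited for 8 libraries as 1 peak list each, beside 2 inputs that entered only through the peak calling of the authors. The authors trimmed reads with Trimmomatic, aligned them with Bowtie2 to hg38, called peaks with MACS2 with the input subtracted, and used bedtools to remove blacklisted regions. Whether reads with several matches were filtered is not given in the sources used here. The deposited lists hold a peak score (column 5), a fold enrichment over background (a ratio), and −log10 p-values and −log10 q-values. The deposited score equals 10 times the −log10 q-value, rounded down, for 99.97% of peaks, and the lowest q-value threshold was 0.1. Peak lists give no read depth, so no counting interval could be given, and the length of a list and its share of strong peaks stand in for depth.

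The members and lists were chosen with earlier results of these data known. Peaks on chromosomes 1 to 22 and X were used (520 lay elsewhere). Peaks were merged over lists at an overlap of 1 bp or more, and a region took the best peak of each list. Scores were turned into percentiles within a list, and for tests into inverse normal scores. The study tested differential binding on reads, with DiffBind. From lists only, ranks of regions present in all lists compared were tested with limma 3.58.1 (R 4.3.3), with Benjamini-Hochberg adjustment over all such regions and a threshold of 0.1, without a replicate block. For single values, exact permutation tests (two-sided) were run. Motifs were searched on both strands, those of promoters within 250 bases before and 50 after the RefSeq start. Genes were named by membership of the list, and each member region was tested and counted. Python 3.11.15, pandas 2.3.3, numpy 2.4.6, scipy 1.17.1 and Biopython 1.88 were used, and the fits were tested on simulated data. Alternatives were ranks by fold enrichment, the percentile itself, peaks merged up to 1 kb apart, peaks with q under 1e-05, lists cut to equal size, an overlap of 50%, windows of 20 and 100 kb, a replicate block and leaving out each library. A count of promoter peaks at the 5′ end of the gene only was added after seeing the data. The genes most like CCL2 and 1 marker gene are not reported here.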

Additional observations from a re-analysis of the deposited data

Results flagged for a closer look

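At 2 regions every TWEAK list of SKBR3 ranked above both untreated lists and every TWEAK list of MDA-MB-453 below both. Taken singly, the SKBR3 order was met by 20.9% of its regions in all 4 lists and the MDA-MB-453 order by 17.9%. The share of all regions with both was not computed. At the MTHFD2L region of the CXCL5/CXCL3/CXCL2 window, chr4:74108287-74118462, the mean percentile changed by 3.67 points in SKBR3 and by −6.4 points in MDA-MB-453, and the difference between the lines was 0.37 on the inverse normal scale (SE 0.17, limma adjusted p = 0.67). At the region upstream of CCL22 in the CX3CL1 window, chr16:57339099-57343623, the changes were 3.91 and −0.554 points, with a difference of 0.57 (SE 0.23, limma adjusted p = 0.65). Neither difference passed the threshold over all regions in all 8 lists. At MTHFD2L the MDA-MB-453 peaks lay in an intron, inside the broader SKBR3 region that spans the promoter.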

How the results depend on the processing

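With peaks of q under 1e-05 only, 1 chemokine region was gained in SKBR3 (5.56% of all regions) in place of 4, and 1 was lost in MDA-MB-453 in place of 0. The TWEAK lists minus the untreated lists holding a gained region then came to 1 at CCL20, 1 at CXCL1 and 0 at CCL2, and to 1 at CCL5 with an overlap of 50%. That overlap gave 8 regions found only in SKBR3 in place of 4. Windows of 20 kb, which hold fewer regions, gave 2 gained in SKBR3, 2 only in SKBR3, 1 only in MDA-MB-453, 4 differing in rank between lines, and covered length differences with TWEAK of 4076.5 bp in place of 8685 bp in SKBR3 and of 71 bp in place of −442.5 bp in MDA-MB-453. The SKBR3 difference was 4836.5 bp with peaks of q under 1e-05. Windows of 100 kb gave 8 only in SKBR3 and 14 differing in rank. A promoter peak at the gene start only, an alternative chosen after seeing the data, left 1 member in MDA-MB-453 in place of 2.

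Leaving out 1 library at a time, gained regions in SKBR3 ranged from 5 to 7 (7 without the first TWEAK library, when 17.6% of all regions were gained) and lost ones from 0 to 1 (1 without the first untreated library). In MDA-MB-453 gained regions ranged from 0 to 3 (3 without the first and 2 without the second TWEAK library) and lost ones from 0 to 1 (1 without the first untreated or the second TWEAK library). Regions higher in rank in SKBR3 ranged from 0 to 2 (2 without the first untreated library), and those lower in MDA-MB-453 from 0 to 1 (1 without either TWEAK library). The covered length difference in MDA-MB-453 ranged from −1022.5 to 137.5 bp, being 115 bp without the second untreated and 137.5 bp without the first TWEAK library. The cause of these changes was not tested.

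The labels do not say whether libraries of the same replicate number were paired (correlation of same-numbered deviations 0.32 in SKBR3 and −0.03 in MDA-MB-453). With the replicate number as a block, 4 chemokine regions were called higher in SKBR3 in place of 0 (7.59% of all regions), namely the regions of the CCL20 window found only in SKBR3, the ART3 intron region and the region upstream of CCL22. The block gave 1 lower region in MDA-MB-453 in place of 0 (0.401% of all regions), between CX3CL1 and CCL17. The block changed no other count, with 8 regions differing between lines and 0 differing in their TWEAK change. Over the counts given for the whole set and all alternatives, 21 moved by more than 1.5 times or to or from 0. Among lengths, judged by direction only, 3 turned, and 142 values of both kinds did not change by these rules. Of the list counts at single gained regions, 4 moved and 8 did not. Peak lists hold no reads, so weak peaks near the calling threshold could not be weighed by depth.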
